A study of Mus musculus with 8 samples.

Results

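H3K27ac, histone H3 acetylated at lysine 27, marked 1477 places on the autosomes of fasted small intestinal crypts. These places lay far from any H3K27ac peak of fed crypts. Each ranked in the lower or middle part of at least 1 fasted peak list. They were chosen by a rule on the authors' peak calls. Peaks of the 4 H3K27ac libraries were merged wherever they overlapped by 1 bp or more, which gave 43091 regions. A region was kept when it lay on an autosome, carried peaks of fasted 2 and fasted 5 but none of fed 1 or fed 4, and lay 50000 bp or more from the nearest fed peak. Of the 1669 regions kept, 1477 stood under the 70th score percentile in at least 1 fasted library; these are called weaker remote regions. The percentile is the share of peaks of the same library with that score or a lower one. The rule thus used the absence of fed peaks, the distance to them and the fasted scores, and these values are given as a description only.

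Fed mice had free access to food and water for 24 h, and fasted mice had water but no food for 24 h. All were males and females of 6 to 12 weeks from the lines Lgr5EGFP-IRES-CreERT2/+ and C57BL/6J, housed singly during the experiment, and the labels do not say which line or sex went into which pool. Each library came from whole crypts of 4 pooled animals, and the isolation solutions of both groups contained 100 nM trichostatin A, which blocks histone deacetylases. The libraries are named by their label numbers as fed 1, fed 4, fasted 2 and fasted 5. No measure at hand checks the labelled tissue, since the files name no genes.

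H3K27ac is placed by the acetyltransferases CBP and p300 and removed by histone deacetylases, and it marks active promoters and enhancers. Crypts hold the intestinal stem cells, their dividing progeny and Paneth cells. The study's title concerns ketone bodies, which are made during fasting, and the ketone body beta-hydroxybutyrate is known as an inhibitor of histone deacetylases. An enhancer may act on a gene a long way off, so acetylated places far from other peaks are of interest as candidate distal elements, but a peak alone does not show enhancer activity. A whole crypt mixes cell types, so more acetylation per cell and more cells that carry it cannot be told apart.

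The peak lists were shorter for fed crypts, at 27640 (fed 1) and 15504 (fed 4), than for fasted crypts, at 37974 (fasted 2) and 35917 (fasted 5). Fasted peaks covered 99.2 Mb in fasted 2 and 109 Mb in fasted 5, against 48.8 Mb in fed 1 and 21.9 Mb in fed 4. The files give no read counts, so sequencing depth is unknown, and a missing fed peak does not show that the mark was absent there. List length and feeding state cannot be told apart. Annotation and sequence of the build used by the authors, mm9, were not used here, so no gene, exon or intron is assigned to any region and no sequence is shown.

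The weaker remote regions made up 3.47% of the 42514 autosomal regions, 18.2% of the 8112 autosomal fasted-only regions and 88.5% of the remote ones. As background, 8319 of all 43091 regions (19.3%) were fasted-only and 128 (0.297%) were fed-only. Turned around, with peaks of fed 1 and fed 4, none of the fasted libraries and 50000 bp or more to a fasted peak, the rule found 1 autosomal region (0.00235%). That region lay on chromosome 10 (98051009 to 98052555), at percentile 63.0 in fed 1 and 4.36 in fed 4, and 60652 bp from a fasted peak. The count depended on the libraries used: it was 3659 without fed 1 and 3215 without fasted 2, and 866 when each list was limited to its 15504 best-scoring peaks. The deposited file names give fed 1 and fasted 2 one number and fed 4 and fasted 5 another, with no stated meaning. Within these pairs the rule gave 2423 fasted regions against 76 fed regions, and 6604 against 19.

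Scores of the weaker remote regions spanned much of the fasted lists. In fasted 2 the score ranged from 50.2 to 679 with a median of 109, and in fasted 5 from 51.1 to 2035 with a median of 390. Whether the scores of different libraries share a scale is not stated, so ranks were used beyond this point. Percentiles ran from 0.295 to 90.3 in fasted 2, with a median of 42.1, and from 1.21 to 90.5 in fasted 5, with a median of 57.9. The lower of the fasted percentiles, which the rule limits, was spread over the whole allowed range. It was under 10 at 166 regions, from 10 to 30 at 367, from 30 to 50 at 453 and from 50 to 70 at 491. The first of these bands is narrower than the others, and the band next to the limit held the most regions (33.2%). Ranks in fasted 2 and fasted 5 went together loosely, with a Spearman rho of 0.52 across the 1477 regions, which are not independent and share their 2 libraries.

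The weaker remote regions ranked higher in fasted 5 than in fasted 2. The percentile was higher in fasted 5 at 1158 of 1477 regions (78.4%) and higher in fasted 2 at 319, and the median gap, fasted 5 minus fasted 2, was 13.7 percentage points. Fasted-only regions of the same score range closer to a fed peak, called nearer weaker regions, numbered 6013 and had a median gap of 2.76 points, with fasted 5 higher at 3307 (55.0%). The 192 remote regions at or above the 70th percentile in both fasted libraries had a gap of 3.22 points, with fasted 5 higher at 135 (70.3%). The 430 nearer regions of that score range had a gap of 0.77 points. Where both ranks are 70 or more there is less room for a gap than where only the lower rank is limited. The gaps of these classes and of the weaker regions are therefore not like for like. The 6929 autosomal regions with a peak in all 4 libraries had a gap of -0.17 points. None of these differences was tested: the gap lies between 2 libraries of the same group, which allow no test, and regions are not replicates.

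**Figure D1:**
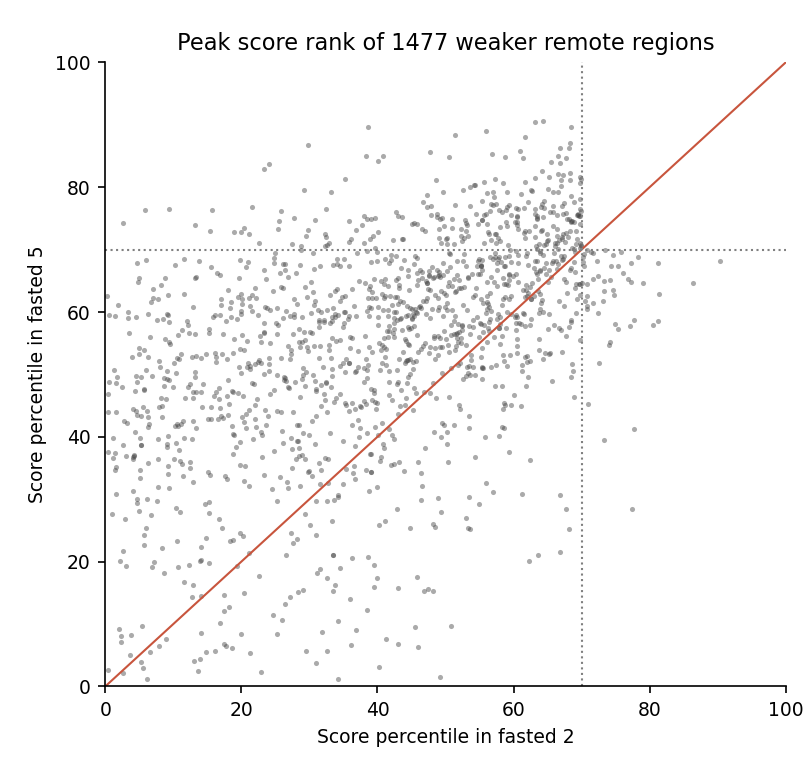
Score percentile in fasted 5 (vertical axis) against that in fasted 2 (horizontal axis) for the 1477 weaker remote regions, 1 point per region. The solid line marks equal rank and the dotted lines the 70th percentile; 1158 points lie above the solid line and 319 below it.

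The gap was larger in the classes farther from fed peaks, up to 1000 kb. Among weaker fasted-only regions its median was -2.82 points at less than 5 kb from a fed peak (3078 regions), 5.47 at 5 to 10 kb, 7.09 at 10 to 25 kb and 10.5 at 25 to 50 kb. In the classes inside the rule it was 12.6 points at 50 to 100 kb (629 regions), 13.7 at 100 to 200 kb, 15.6 at 200 to 500 kb, 15.7 at 500 to 1000 kb and 13.7 for the 58 regions at 1000 kb or more. Fasted 2 had median percentiles of 40.3 to 42.7 in all classes up to 1000 kb and 49.8 beyond, while those of fasted 5 were 37.9 below 5 kb, 54.3 at 25 to 50 kb, 57.3 at 50 to 100 kb, 58.8 at 500 to 1000 kb and 63.5 beyond. The rule limits the lower of the fasted percentiles, which was that of fasted 2 at most regions, so it holds fasted 2 down more than fasted 5. With no limit on the percentile, tried after the data were seen, the median over fasted-only regions was 42.6 in fasted 2 and 39.2 in fasted 5 below 5 kb, 46.6 and 59.4 at 50 to 100 kb, and 44.1 and 61.0 at 500 to 1000 kb. Within the weaker remote regions alone, distance had a Spearman rho of 0.02 with the percentile in fasted 2 and 0.07 with that in fasted 5, so rank hardly followed distance once 50 kb was passed.

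**Figure D2:**
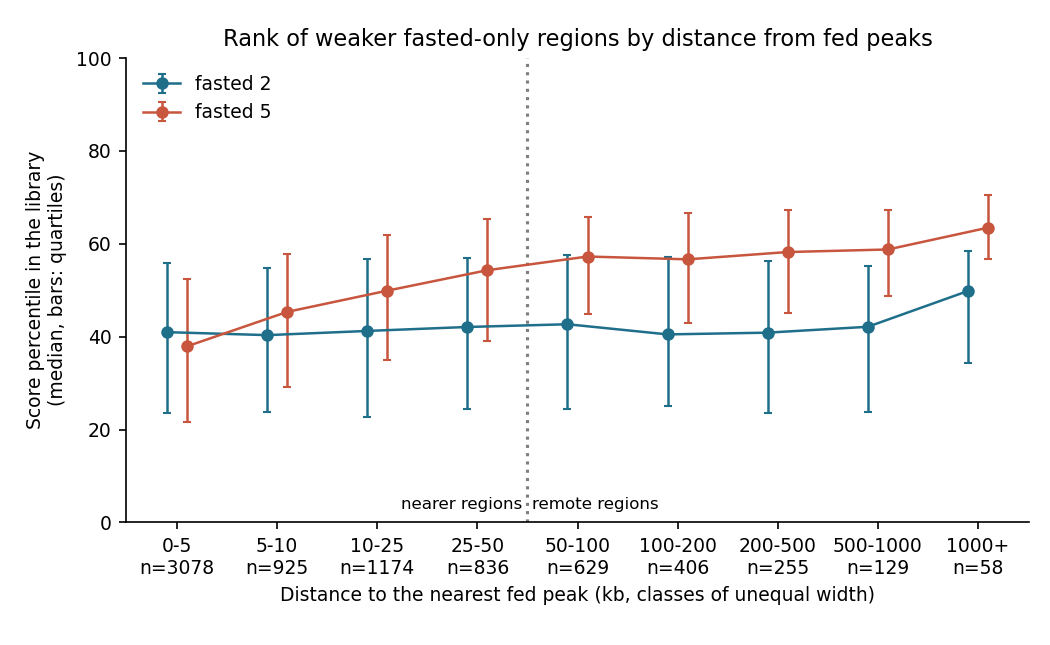
Median score percentile (vertical axis, bars from the lower to the upper quartile) of weaker fasted-only regions in classes of distance to the nearest fed peak (horizontal axis, kb). Nearer weaker regions are left of the dotted line and weaker remote regions right of it; fasted 5 goes from 37.9 below 5 kb to 57.3 at 50 to 100 kb, while fasted 2 lies between 40.3 and 42.7 in all classes up to 1000 kb.

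The larger gap of the weaker remote regions was seen on each autosome. Its median ran from 6.64 points on chromosome 9 to 18.9 points on chromosome 15. Among nearer weaker regions it ran from -3.30 points on chromosome 18 to 6.53 points on chromosome 9. The remote regions had the larger gap on 19 of 19 autosomes, which are not replicates, but on chromosome 9 the values differed by only 0.11 points. Over all autosomes the difference between the median gaps was 10.9 points. It was 9.11 points with no limit on the percentile, 7.68 points with equal numbers of top-scoring peaks and 17.0 points when only regions under the 50th percentile were compared.

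**Figure D3:**
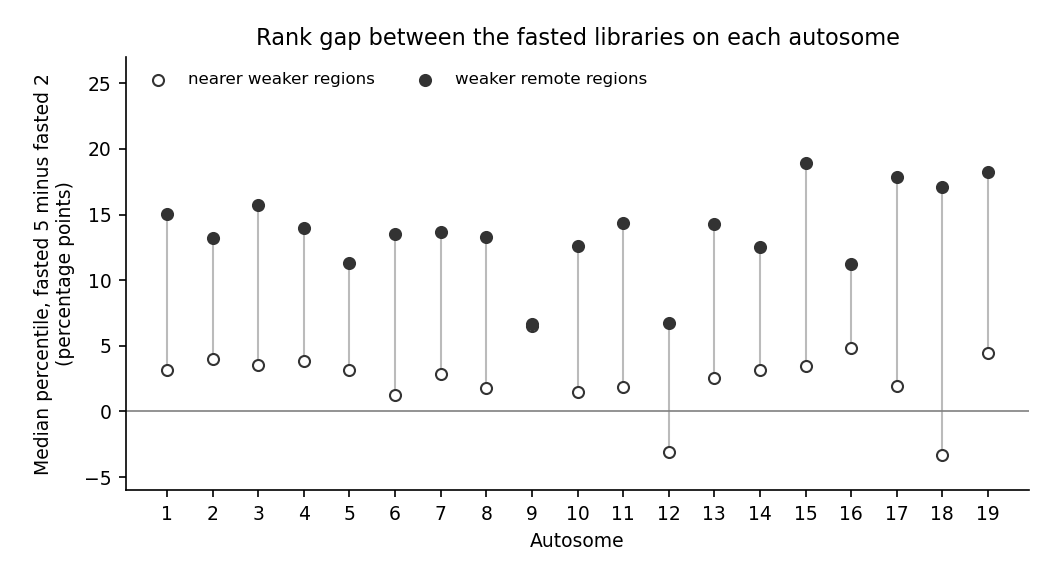
Median percentile in fasted 5 minus that in fasted 2 (vertical axis, percentage points) for each autosome (horizontal axis). Filled points are the weaker remote regions and open points the nearer weaker regions; the filled point is the higher of the pair on all 19 autosomes and nearly meets the open point on chromosome 9.

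The same asymmetry was present in which library had a peak at all. Far from fed peaks (50000 bp or more), 3957 autosomal regions lacked a fed peak: 1669 had a peak in both fasted libraries, 330 in fasted 2 alone and 1958 in fasted 5 alone. Closer to fed peaks 18041 regions lacked a fed peak, with 6443 in both, 5650 in fasted 2 alone and 5948 in fasted 5 alone. Fasted 5 therefore had 5.93 times as many regions of its own as fasted 2 in remote places and 1.05 times as many closer by. Remote regions of fasted 5 alone outnumbered those of fasted 2 alone on 19 of 19 autosomes. Of the remote regions of fasted 2, 83.5% also had a fasted 5 peak, and of those of fasted 5, 46.0% had a fasted 2 peak. The shares closer to fed peaks were 53.3% and 52.0%.

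In remote places, peaks of fasted 2 from the 50th percentile up were almost always found again in fasted 5. From the 50th to the 70th percentile of fasted 2, 492 of 497 remote regions (99.0%) had a fasted 5 peak, against 87.6% of 2069 regions closer to fed peaks. In the same band of fasted 5, 735 of 967 remote regions (76.0%) had a fasted 2 peak, against 86.4% of 2225 closer ones. From the 30th to the 50th percentile the shares were lower. They were 89.3% of 513 remote and 59.4% of 3145 closer regions for fasted 2. For fasted 5 they were 36.3% of 932 remote and 58.6% of 3314 closer regions. At the bottom of the lists, under the 10th percentile, a peak in the other fasted library was present at 139 of 283 remote regions of fasted 2 (49.1%) and at 41 of 448 of fasted 5 (9.15%). From the 70th to the 90th percentile the share was 99.6% for fasted 2 and 99.5% for fasted 5. Closer to fed peaks, the shares under the 10th percentile were 27.1% of 2165 regions for fasted 2 and 23.0% of 2088 for fasted 5. The weakest peaks of fasted 5 were thus mostly its own, in remote places more than closer by. Closer to fed peaks the same held for the weakest peaks of fasted 2. The rule, which asks for both libraries, left out such peaks of a single library. Which fasted library is closer to other fasted pools cannot be told from 2 libraries.

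**Figure D4:**
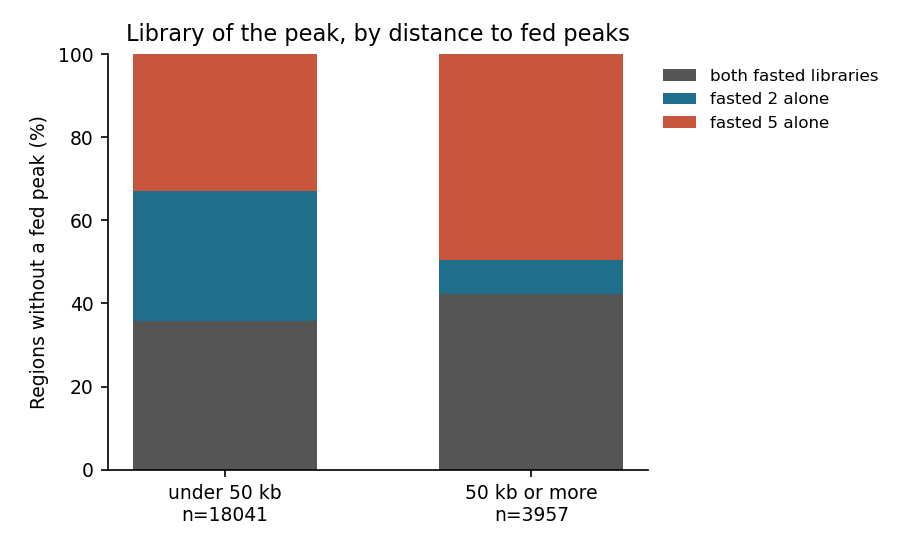
Share of autosomal regions without a fed peak (vertical axis, %) that had a peak in both fasted libraries, in fasted 2 alone or in fasted 5 alone, for regions under 50 kb and 50 kb or more from the nearest fed peak. Fasted 2 alone makes up 31.3% of the nearer and 8.34% of the remote regions, and fasted 5 alone 33.0% and 49.5%.

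Most weaker remote regions were a single narrow peak in each fasted library. Both libraries had exactly 1 peak at 1312 of them (88.8%), against 85.6% of nearer weaker and 49.3% of the regions of all 4 libraries. The median region was 2189 bp wide (quartiles 1754 and 2860 bp), close to the 2135 bp of nearer weaker regions and below the 3519.5 bp of remote regions of higher score and the 6537 bp of regions with a peak in all 4 libraries. Merging itself adds width where more lists contribute peaks. Width went with rank: the median was 1627.5 bp where the lower percentile was under 10 and 2584 bp where it was from 50 to 70 (Spearman rho 0.45 across regions). Width and distance from fed peaks had a rho of -0.01.

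Fasted 5 covered more of most weaker remote regions. Its peaks covered a median of 2090 bp per region, against 1473 bp in fasted 2, and were the wider ones at 1245 of 1477 regions (84.3%). Among nearer weaker regions fasted 5 was wider at 66.0%, with medians of 1836 and 1506 bp. The share was 77.6% among remote and 69.1% among nearer regions of higher score, and 57.6% among regions of all 4 libraries. In total the peaks of fasted 5 covered 3.39 Mb of the weaker remote regions and those of fasted 2 covered 2.43 Mb, a ratio of 1.39, against 1.18 in nearer weaker regions, 1.15 in remote regions of higher score and 1.02 in regions of all 4 libraries. The narrower fasted 2 peaks mostly lay inside the fasted 5 peaks. Of the bases under fasted 2 peaks 91.5% were also under a fasted 5 peak, and of those under fasted 5 peaks 65.6% were under a fasted 2 peak. These shares were 82.6% and 70.2% in nearer weaker regions, 94.5% and 82.0% in remote regions of higher score, and 92.6% and 90.8% in regions of all 4 libraries.

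The nearest fed peak was a median of 117971 bp away, and it belonged to fed 1, the longer fed list, at 1120 regions and to fed 4 at 357. The rule sets the lower end of this distance. Of the 1477 regions, 42.6% lay 50 to 100 kb away, 27.5% lay 100 to 200 kb away, 17.3% lay 200 to 500 kb away, 8.73% lay 500 to 1000 kb away and 3.93% farther. Regions with a peak in all 4 libraries were a median of 215727 bp away.

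Although remote from fed peaks, the regions often had other fasted peaks around them. The nearest other region with a fasted peak was a median of 24644 bp away, within 10 kb at 553 regions (37.4%) and within 50 kb at 951 (64.4%). The remaining 526 (35.6%) stood alone within 50 kb. The nearest neighbour within 50 kb was a region of fasted 5 alone in 416 cases and another weaker remote region in 303. It was a region of fasted 2 alone in 143, a remote region of higher score in 40 and another fasted region in 49. As background, 49.5% of all remote regions without a fed peak were of fasted 5 alone and 8.34% of fasted 2 alone, though a neighbour may lie closer to a fed peak. No shares of neighbours around other regions are given beside these. Taking weaker remote regions only, 489 (33.1%) had another within 50 kb. Among nearer weaker regions the share was 66.6%, but these are more numerous. A remote region of higher score lay within 50 kb of 81 weaker ones (5.48%).

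The stretches between neighbouring fed peaks were used to see how the regions fill the space open to them. A stretch longer than 100000 bp has room for a region at the required distance from both ends, and its length less 100000 bp is called eligible. There were 3128 such stretches with 1721 Mb eligible, and 915 of them (29.3%) held 1461 of the weaker remote regions; the other 16 regions lay before the first or after the last fed peak of a chromosome. A single region was found in 577 stretches, and 338 held 2 or more, together 884 regions.

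The regions were densest in the shorter stretches. Stretches of 150 to 200 kb held 3.92 regions per eligible Mb, those of 300 to 500 kb held 2.06, those of 1000 to 2000 kb held 0.689 and those over 2000 kb held 0.304. The 522 stretches over 1000 kb made up 71.3% of the eligible length and held 35.5% of the regions in stretches. Longer stretches were more often occupied: 7.42% of those of 100 to 150 kb and 54.9% of those over 2000 kb held a region. Median length was 478 kb for occupied and 201 kb for empty stretches. Longer stretches had more room for a region, and neither of these comparisons allows for it. The 822 stretches of 100 to 150 kb had 18.2 Mb eligible in all, and the 233 over 2000 kb had 850 Mb.

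**Figure D5:**
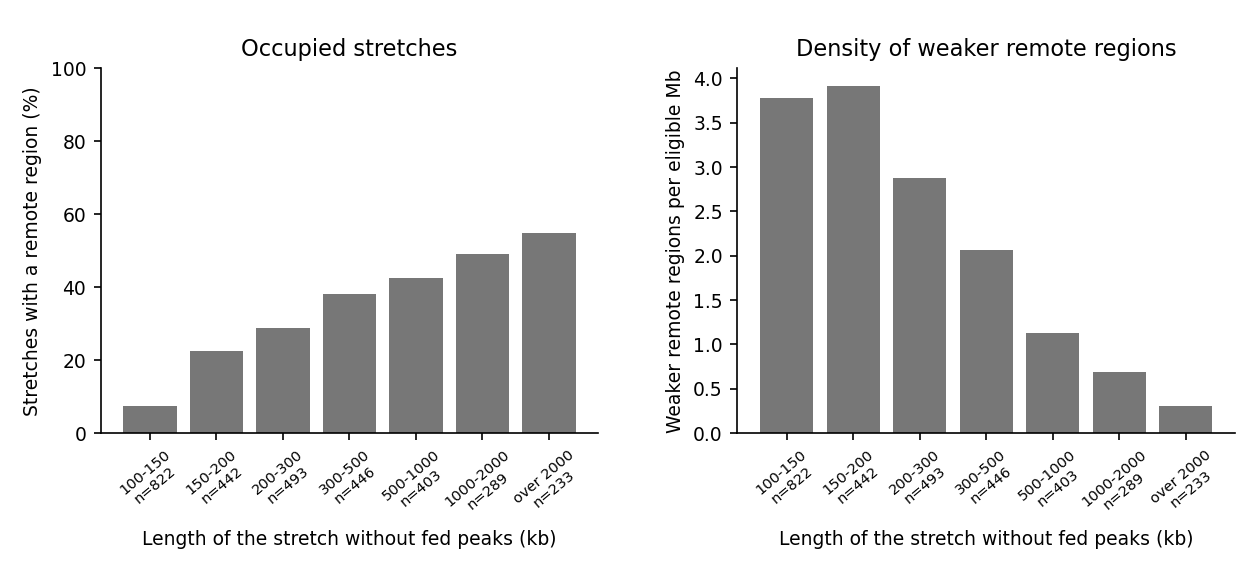
Left, share of stretches between neighbouring fed peaks that held a weaker remote region (%), and right, number of weaker remote regions per eligible Mb, both by the length of the stretch (kb, classes of unequal width, n is the number of stretches). Occupancy goes from 7.42% to 54.9% with length, while density goes from 3.78 per Mb in the shortest class to 0.304 in the longest.

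Each autosome held weaker remote regions, from 41 on chromosome 19 to 133 on chromosome 4. Per eligible Mb the highest densities were 1.21 on chromosome 4 and 1.13 on chromosome 5, and the lowest were 0.577 on chromosome 15 and 0.613 on chromosome 14. Chromosome 4 held 9.005% of the weaker remote regions, 7.22% of all autosomal fasted-only regions and 6.81% of those with a peak in all 4 libraries. Chromosome 1 held 8.26%, 5.77% and 5.93%. Chromosome 11 went the other way, with 4.47%, 7.15% and 9.84%. On that chromosome 11.4% of the fasted-only regions were weaker and remote, against 26.1% on chromosome 1. Eligible length ranged from 35.4 Mb on chromosome 19 to 150 Mb on chromosome 1.

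The stretch with the most weaker remote regions lay on chromosome 17 (21845287 to 23687234) and held 7 of them over 1023 kb. All were narrow, from 920 to 1586 bp, and low in fasted 2, at percentiles 9.12 to 38.6. In fasted 5 they stood at 15.1 to 62.2. The first of them (21981891 to 21983384) had scores of 100.0 in fasted 2 and 485 in fasted 5. The one at 22497045 to 22497964 was the only one of the 7 that ranked higher in fasted 2 (28.4) than in fasted 5 (15.1). A pair, at 22098076 to 22099225 and 22099515 to 22100654, nearly touched.

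Another 4 stretches held 6 weaker remote regions each. The first, on chromosome 11 (102424919 to 102889539), was only 465 kb long. Its widest region (102495937 to 102501470, 5534 bp) stood at percentile 81.2 in fasted 2 and 67.9 in fasted 5, and the region beside it (102493581 to 102495654) at 61.1 and 44.9. These and 2 further regions of the stretch (102504799 to 102506022, and 102557801 to 102560237) ranked higher in fasted 2, against the usual direction. The second lay on chromosome 17 (71968120 to 73451714). Its 6 regions sat within 127 kb towards the end of a stretch of 1484 kb. They included the remote region with the highest fasted 5 percentile of all 1477 (73184722 to 73187883, percentile 90.5 in fasted 5 but 64.3 in fasted 2) and the one with the highest fasted 2 percentile (73304128 to 73311462, 90.3 in fasted 2 but 68.2 in fasted 5). The other 2 stretches lay on chromosome 18.

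The 10 regions with the highest lower percentile lay just under the limit of 70, so the rule sets their lower rank. That percentile was 69.79 to 69.95, and it was the one in fasted 2 at 8 of them. Their width was 1814 to 6713 bp and their distance from a fed peak 53112 to 1085753 bp. The highest lay on chromosome 12 (31536733 to 31541876), with scores of 307 in fasted 2, as 3 peaks, and 715 in fasted 5, as 1 peak. The next lay on chromosome 6 (147423685 to 147425955), at percentiles 69.9 and 70.6, and 280961 bp from a fed peak. On chromosome 9, one (4308514 to 4311223) reached 70.8 and 69.9 and another (14181513 to 14188225) 69.8 and 81.6; the latter was the widest of the 10. The most remote of the 10, on chromosome 18 (44986810 to 44989407), stood at 69.9 in fasted 2 and 70.7 in fasted 5. Its nearest fed peak was 1085753 bp away. The others lay on chromosome 3 (57143838 to 57149487), chromosome 1 (133421042 to 133425694, and 82312419 to 82314606), chromosome 2 (121781109 to 121784506) and chromosome 11 (76575848 to 76577661), at 69.8 to 69.9 in fasted 2 and 70.3 to 81.2 in fasted 5.

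The regions nearest to each limit of the rule lay close to it on either side. They were picked for this, so they do not show whether the values break there. Just outside the percentile limit were a region on chromosome 11 (97047122 to 97051181), at 70.0 in fasted 2 and 87.4 in fasted 5, a region on chromosome 2 (35832845 to 35836012), at 70.0 and 80.6, and a region on chromosome 5 (91829703 to 91832489), at 70.2 and 74.8. Just inside the distance limit were regions on chromosome 11 (53892947 to 53894631), chromosome 4 (117724161 to 117728152) and chromosome 16 (57494301 to 57498548), 50025, 50044 and 50046 bp from a fed peak. Just outside it were regions on chromosome 1 (21156416 to 21157530), chromosome 15 (85708844 to 85711653) and chromosome 2 (118377966 to 118380677), 49980, 49971 and 49968 bp away.

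The most remote regions lay several Mb from any fed peak. The first, on chromosome 1 (115091250 to 115092222, 973 bp), was 5.19 Mb away and stood at percentile 31.1 in fasted 2 and 18.1 in fasted 5. Its neighbour (115385450 to 115389222), 4.90 Mb away, stood at 34.1 and 68.5. On chromosome 16 a region (70313537 to 70315527) 4.75 Mb away reached 68.9 in fasted 2 and 70.1 in fasted 5, near the upper limit, while one close to it (70213811 to 70216014) stood at 8.99 and 46.1. The fifth, on chromosome 4 (26272284 to 26274517), was 4.50 Mb away, at 56.9 and 77.2. Weak and middle ranks thus occurred side by side at these distances.

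The widest region stood apart from the rest. It lay on chromosome 1 (90167698 to 90189876) and was 22179 bp wide, a single peak of 21346 bp in fasted 2 and of 22154 bp in fasted 5. Its score was 133 in fasted 2 (percentile 49.5) and 913 in fasted 5 (75.1). Both scores were above the medians of the weaker remote regions, 109 in fasted 2 and 390 in fasted 5. The next, on chromosome 7 (138167352 to 138180061, 12710 bp), was 5 peaks in fasted 2 and 1 in fasted 5. The others, on chromosome 5 (151061121 to 151069724), chromosome 1 (36632893 to 36640688) and chromosome 11 (108840650 to 108848092), were 7443 to 8604 bp wide and were covered for 3516 to 5074 bp in fasted 2 and 7124 to 8364 bp in fasted 5.

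The 5 regions with the lowest lower percentile scored 50.2 to 50.3 in fasted 2, next to the lowest score of that list, 50.0. They were picked by the lower of their ranks, so a higher rank in fasted 5 follows in part from the choice. The lowest, on chromosome 14 (104920629 to 104922244), scored 50.2 in fasted 2, at percentile 0.295, and 495 in fasted 5, at percentile 62.6. Those on chromosome 2 (62427621 to 62428932), chromosome 14 (28163279 to 28165549) and chromosome 10 (40726627 to 40728210) stood at 0.34, 0.36 and 0.45 in fasted 2 and at 44.0, 46.8 and 37.5 in fasted 5. The region on chromosome 8 (71794758 to 71795553), the narrowest of all at 796 bp, was the exception, at 0.39 and 2.68.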

How the data were processed

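The deposited files of 2 fed and 2 fasted H3K27ac libraries were used; the 4 input libraries were not analysed here. Each file lists the authors' peaks of a single library with a score per peak; the score is the authors' deposited value and its scale is not stated. The submitters' processing notes name build mm9, Bowtie 1.1.2, SAMtools 1.9, deepTools 1.5.11 and FastQC. The names of peaks and files point to MACS without a shifting model; its settings: not given in the sources used here. Merging, distances and percentiles were computed in Python 3.11.15 with pandas 2.3.3 and NumPy 2.4.6 and tested on simulated peaks. Starts are written counting from 1. Distances are bases between edges. In fasted 5, 1282 peaks share a score of 3100. Groups and replicates follow the sample titles; each library is a separate pool of 4 animals.

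No test was made, because the rule fixes fed against fasted and the other differences lie within the fasted group or between regions, which are not replicates. Peak lists hold no counts, so precision from depth is unknown. Named regions are the 10 with the highest and 5 with the lowest lower percentile, the 5 most remote, the 5 widest, the 3 stretches with most regions, and 3 on either side of each limit (ties by chromosome and start). The regions and comparisons were chosen with earlier results of these data known. Marker and gene lists were not run, since no mm9 annotation was used. The percentiles and list lengths include chromosomes X and Y. Alternatives were other distances, percentiles, score minimums, merging, coverage and leaving out each library; the rank gap alternatives and the pairs by file number were chosen after seeing the data.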

Additional observations from a re-analysis of the deposited data

Results flagged for a closer look

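Chromosome X lies outside the rule, and its regions were not among those compared above, though they are counted in the whole lists and in the background of 43091 regions. On it, 167 regions met the rule apart from the restriction to autosomes, out of 207 fasted-only regions there, and 0 met the rule turned around for fed peaks. They were flagged only as lying outside the regions compared. The rule turned around asks for peaks of both fed libraries, which had 25 peaks on chromosome X in fed 1 and 6 in fed 4. With so few fed peaks, the count of 0 does not set fed apart from fasted crypts, and no conclusion is drawn from it. Of the 207 fasted-only regions, 178 lay 50000 bp or more from these few fed peaks. The 167 regions had a median width of 2301 bp and a median distance to a fed peak of 1184313 bp. Their median percentile was 37.4 in fasted 2 and 61.2 in fasted 5, and 154 of the 167 ranked higher in fasted 5, a median gap of 20.6 points. A further 286 remote regions of chromosome X had a peak in fasted 5 alone and 10 in fasted 2 alone.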

How the results depend on the processing

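Of 67 alternatives run, 41 stayed within 1.5 times a count or within the spread set for a value, and 26 moved beyond it. For width the spread was the standard deviation of the median covered length over the 2 fasted libraries (436 bp). For distance it was that of the median distance over the 2 fed libraries (30017 bp). For the difference in rank gap it was that over autosomes (4.10 points). Such spreads are rough limits, since 2 libraries give little precision and autosomes are not replicates. Counts, widths, shares and distances have no direction to reverse. Only the difference in rank gap has a sign, and it stayed positive in each of its alternatives. The causes were not tested. The count of 1477 became 2313 at a distance of 25000 bp and 848 at 100000 bp, 3075 with scores of 100 or more, and 866 with equal numbers of top-scoring peaks. It was 2423 for fed 1 with fasted 2 only, 6604 for fed 4 with fasted 5 only, and 1798 to 3659 with a library left out (3659 without fed 1, 3215 without fasted 2). The median width of 2189 bp became 2809 bp with scores of 100 or more and 3079.5 bp with equal numbers, and was 1212 to 2335 bp with a library left out. The share with another such region within 50 kb (33.1%) was 30.1% at 100000 bp, 25.7% under percentile 50, 35.6% under percentile 90, 45.7% with scores of 100 or more, 18.7% with equal numbers, 29.1% with peaks within 1000 bp merged, 29.2% where each fasted library covered 50% or more, and 38.2 to 54.7% with a library left out; its spread was taken as 30.7 to 35.6%, an exact 95% binomial interval that treats regions as independent, which neighbours are not. The median distance was 70004 bp and 205974 bp at the other distance limits, and 113433 to 137037 bp with a library left out. The difference in rank gap (10.9 points) was 17.0 under percentile 50 and 7.68 to 11.4 in the other 12 alternatives; without fed 1 it was 10.5 and without fed 4 it was 11.1. No paired analysis was possible because the labels give the fed and fasted libraries no shared replicate number and no test was made; the counts for fed 1 with fasted 2 and fed 4 with fasted 5 follow the number in the file names.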
